A study of Mus musculus with 5 samples.

Results

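The motile cilia axoneme genes described here were the protein-coding genes of the count table whose symbol begins with Dnah, Dnai, Cfap, Rsph or Drc followed by a digit, together with Armc2 and Ak7. The rule found 68 genes of the 56748 in the table, on 19 chromosomes. They were chosen because genes of this kind followed 1 library of the series, 5xFAD replicate 3, so their levels across libraries and between genotypes are a description of the same values that chose them. Of the 68 genes, 64 passed the filter on low counts, as did 17724 genes of the whole table. The other 4 were Cfap58, Cfap20dc, Cfap97d1 and Rsph6a.

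RNA came from CD11b-positive brain cells of 7-month-old mice, with the cerebellum removed, although the library descriptions name brain tissue. In the brain CD11b, an integrin chain, marks microglia and further myeloid cells. All 5 mice were on the 5xFAD background, a transgenic mouse model of Alzheimer's disease. The labels give no further transgene for 2 of them (5xFAD, replicates 1 and 3). The other 3 (5xFAD/Cd5l tg/wt, replicates 1, 2 and 3, here Cd5l-transgenic) also carried a mouse CD5L transgene driven by the human PDGF-B promoter. CD5L is a protein secreted by macrophages. Wild-type mice were not analysed here. The titles number the mice within each genotype and nothing else is given on how they were paired, housed or processed.

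Motile cilia beat by means of an axoneme, a ring of doublet microtubules around a central pair. Outer and inner dynein arms slide the doublets past each other, the nexin-dynein regulatory complex links neighbouring doublets, and radial spokes pass signals from the central apparatus to the arms. In the brain such cilia are carried by ependymal cells that line the ventricles, and choroid plexus epithelium also bears cilia with axonemal proteins. Microglia are not known for motile cilia.

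Library totals ran from 30798377 to 34794617 counts, so 1 count was worth 0.0287 to 0.0325 CPM, the unit used here for counts scaled to library size with TMM factors. The limit set by 3 counts was 0.0862 to 0.0974 CPM and covers counting error only. The transgene separated the labels, since Cd5l stood at 1.52 and 0.254 CPM in the 5xFAD libraries and 233.7, 334.9 and 194.8 CPM in the transgenic libraries. Microglial markers summed to 23930 to 26160 CPM over 10 genes in every library. Libraries of 1 genotype differed by more than counting noise (chi-square over its degrees of freedom 49.9 for the 5xFAD pair and 21.6 to 53.6 for the transgenic pairs).

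Axoneme genes were read in all 5 libraries and stood apart in 1 of them. Of the 64 tested genes, 60 (93.8%) were highest in 5xFAD replicate 3, against 21.3% of all tested genes. In 51 (79.7%) the level there was more than 2-fold above the highest of the other 4 libraries, against 3.85% of all tested genes. Because the genes were chosen for following that library, nothing is read from these shares. Summed over those 51 genes, the level was 113.1 CPM in the first 5xFAD library and 769.9 CPM in 5xFAD replicate 3. The same sum was 167.2, 161 and 121.3 CPM in Cd5l-transgenic replicates 1, 2 and 3. So 5xFAD replicate 3 lay above all the others, and 5xFAD replicate 1 lay below every transgenic library. In bulk RNA, fewer cells of a type and less RNA per cell cannot be told apart.

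The excess in 5xFAD replicate 3 ran from 2.11-fold to 6.85-fold over the highest other library among the 51 genes, with a median of 4.01 and quartiles of 3.48 and 4.78. The tested members nearest to the 2-fold line were Cfap161 just inside it, at 2.11-fold, and Dnah14 just outside it, at 1.79-fold. Outside 5xFAD replicate 3 the order of the libraries varied among the 51 genes. The second highest library was Cd5l-transgenic replicate 1 for 28 genes, replicate 2 for 18 and replicate 3 for 2, and it was 5xFAD replicate 1 for 3. The lowest library was 5xFAD replicate 1 for 31 genes and Cd5l-transgenic replicate 3 for 16. Across the 51 genes, Spearman's rho between the CPM per kb of gene length of any pair of libraries was 0.875 to 0.945. This is a description across genes, which are not replicates and which were divided by the same lengths in every library.

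**Figure D1:**
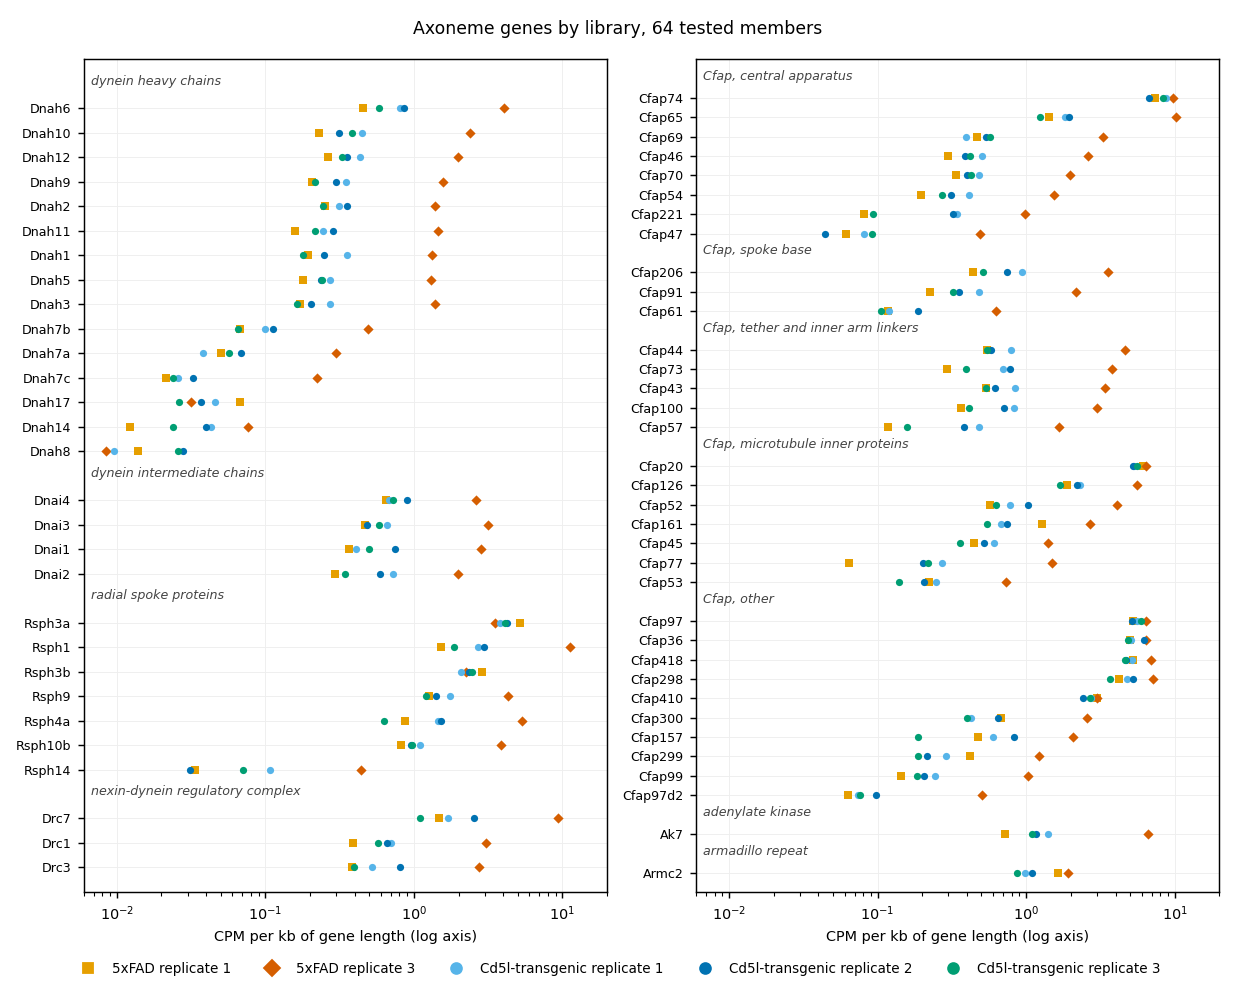
Level of each tested axoneme gene in each library, as CPM per kb of gene length on a log axis, grouped by role, with 1 point per library. In most rows the diamond of 5xFAD replicate 3 lies to the right of the other 4 points, while Rsph3a, Rsph3b, Dnah17 and Dnah8 are highest in another library.

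The X-box, the site bound by RFX factors, and the forkhead motif of FOXJ1 are known in promoters of motile cilia genes. Since most members shared a high library, the promoters of all members were read from RefSeq (GRCm38.p6, from 250 bases before to 50 bases after the start). A promoter was given for 52 of the 68 members, 2 of them under an older symbol. The short X-box stretch GTTGCC was found on either strand in 18 of the 52 (34.6%), against 14.1% of 27025 genes. The full X-box pattern GTNNCCNNNGNAAC was found in 7 (13.5%) against 2.49%, and the forkhead motif TGTTTAC in 4 (7.69%) against 4.05%. A stretch of the full pattern can also hold GTTGCC, so the first and second counts overlap. The members with a full X-box were Cfap44, Cfap45, Cfap61, Cfap206, Cfap298, Dnah17 and Cfap20dc. Of the 38 members with a promoter that were over 2-fold in 5xFAD replicate 3, 4 (10.5%) held the full pattern, and of the 10 other tested members 2 (20%) did. In the same order, GTTGCC was held by 12 (31.6%) and 4 (40%), and the forkhead motif by 2 (5.26%) and 2 (20%). A match describes letters only, and no test was made of these shares.

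The sequences below show a full X-box in 3 members that were over 2-fold in 5xFAD replicate 3, then in 2 that were not, then the forkhead motif of Ak7. Each runs 5′ to 3′ on the gene's own strand and ends before the start of the transcript, with the motif in capitals.
Cfap44: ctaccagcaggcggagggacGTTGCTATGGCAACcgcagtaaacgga
Cfap45: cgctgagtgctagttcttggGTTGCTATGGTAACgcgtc
Cfap206: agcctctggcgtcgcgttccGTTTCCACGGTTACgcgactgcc
Cfap298: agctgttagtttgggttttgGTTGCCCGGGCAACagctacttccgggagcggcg
Dnah17: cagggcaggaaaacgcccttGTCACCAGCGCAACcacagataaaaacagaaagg
Ak7: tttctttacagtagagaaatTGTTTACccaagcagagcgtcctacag
In GRCm38.p6 the Cfap44 stretch lies at chr16:44394752-44394798 on the plus strand, with the motif 27 to 14 bases before the start. The Cfap45 stretch lies at chr1:172521091-172521129 on the plus strand, 19 to 6 bases before the start. The Cfap206 stretch lies at chr4:34730207-34730249 on the minus strand, 23 to 10 bases before the start. So in these 3 members the X-box stood close to the start. In Cfap298 (chr16:90935004-90935057, minus strand) it stood 188 to 175 bases before the start, and in Dnah17 (chr11:118129345-118129398, minus strand) 159 to 146 bases. The Cfap298 promoter also held the short stretch GTTGCC at 69 to 64 bases before the start, and on the other strand at 60 to 55 bases. A difference in position between the shown genes was not tested. The Ak7 stretch (chr12:105705831-105705877, plus strand) has its forkhead motif 131 to 125 bases before the start. The patterns of Cfap44, Cfap45 and Cfap206 match on the strand opposite to the gene, those of Dnah17 and Ak7 on the gene's strand, and that of Cfap298 on both.

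Dynein heavy chains are the motors of the arms. Of 15 tested, 12 were over 2-fold in 5xFAD replicate 3, and the median log2 ratio to the highest other library was 2.14 (over all tested genes, -0.16). Levels between genes are compared as CPM per kb of gene length, averaged over the 5 libraries. On that scale the heavy chains ran from 1.35 for Dnah6 down to 0.0172 for Dnah8. Dnah6 (ENSMUSG00000052861, GRCm39 chromosome 6, 72994589 to 73198634, minus strand), a heavy chain of the inner arms, stood at 6.07 and 53.4 CPM in the 5xFAD libraries and 10.8, 11.4 and 7.69 CPM in the transgenic libraries. The level in 5xFAD replicate 3 was 4.68 times the highest of the others, and the 3 transgenic libraries all lay above 5xFAD replicate 1. Dnah10 (ENSMUSG00000038011, chromosome 5, 124802149 to 124911372, plus strand), a heavy chain of the double-headed inner arm, stood at 3.69 and 38.5 CPM in the 5xFAD libraries and 7.18, 5.02 and 6.14 CPM in the transgenic libraries. Its partner in that arm, Dnah2, stood at 3.8 and 20.8 CPM in the 5xFAD libraries and 4.72, 5.3 and 3.66 CPM in the transgenic libraries. For both, 5xFAD replicate 3 lay far above the rest. For Dnah2 the transgenic range included 5xFAD replicate 1, whereas for Dnah10 it lay above it.

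Dnah12, a single-headed inner arm heavy chain, stood at 3.19 and 23.9 CPM in the 5xFAD libraries and 5.2, 4.27 and 3.93 CPM in the transgenic libraries. For the outer arm, Dnah9 stood at 3.29 and 24.9 CPM in the 5xFAD libraries and 5.59, 4.8 and 3.45 CPM in the transgenic libraries. Dnah11, its paralog at the base of the cilium, stood at 2.3 and 21.1 CPM in the 5xFAD libraries and 3.56, 4.14 and 3.12 CPM in the transgenic libraries. Inner and outer arm chains thus shared the same high library, by 4.59-fold, 4.46-fold and 5.11-fold over the next. Dnah7a, Dnah7b and Dnah7c are near-identical copies on chromosome 1, so how reads were shared among them is uncertain. Dnah7c, the member with the highest plain ratio of all at 6.85-fold, stood at 0.271 and 2.79 CPM in the 5xFAD libraries and 0.323, 0.408 and 0.303 CPM in the transgenic libraries.

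The heavy chains that were not over 2-fold were Dnah17, Dnah8 and Dnah14. Dnah8 and Dnah17 are known as outer arm heavy chains of the sperm flagellum. Dnah17 stood at 1.08 and 0.508 CPM in the 5xFAD libraries and 0.743, 0.596 and 0.424 CPM in the transgenic libraries, and was highest in 5xFAD replicate 1. Dnah8 stood at 0.373 and 0.226 CPM in the 5xFAD libraries and 0.259, 0.753 and 0.696 CPM in the transgenic libraries, lowest of all in 5xFAD replicate 3 and with the groups overlapping. Dnah14, a less studied chain named here after its values were seen, stood at 0.203 and 1.27 CPM in the 5xFAD libraries and 0.711, 0.659 and 0.393 CPM in the transgenic libraries. All 3 stood at most slightly above 1 CPM in any library, and each overlaps another tested gene.

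Intermediate chains hold the heavy chains together in an arm. All 4 tested were over 2-fold in 5xFAD replicate 3, with a median log2 ratio of 1.71. Dnai1, of the outer arm, stood at 1.02 and 7.87 CPM in the 5xFAD libraries and 1.13, 2.07 and 1.39 CPM in the transgenic libraries. Its partner Dnai2 stood at 1.36 and 9 CPM in the 5xFAD libraries and 3.3, 2.7 and 1.57 CPM in the transgenic libraries. Below 5xFAD replicate 3, the next library was Cd5l-transgenic replicate 2 for Dnai1 and replicate 1 for Dnai2, and 5xFAD replicate 1 was lowest for both. Dnai3, of the double-headed inner arm, stood at 1.56 and 10.4 CPM in the 5xFAD libraries and 2.2, 1.6 and 1.94 CPM in the transgenic libraries. Dnai4, of the same arm, stood at 4.78 and 19.3 CPM in the 5xFAD libraries and 4.98, 6.59 and 5.33 CPM in the transgenic libraries, and overlaps Mier1, a more abundant gene on the opposite strand.

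Radial spoke proteins divided. Of 7 tested, 5 were over 2-fold in 5xFAD replicate 3, with a median log2 ratio of 1.75. Rsph1 (ENSMUSG00000024033, chromosome 17, 31473993 to 31496357, minus strand), a protein of the spoke head, stood at 2.1 and 15.3 CPM in the 5xFAD libraries and 3.69, 4.05 and 2.57 CPM in the transgenic libraries. Rsph9, another spoke head protein, stood at 2.03 and 6.91 CPM in the 5xFAD libraries and 2.81, 2.26 and 1.94 CPM in the transgenic libraries. For both, 5xFAD replicate 3 was high and the other 4 libraries lay within 2-fold of each other. Rsph3a and Rsph3b are near-identical copies of a spoke stalk gene, and reads between them may have been shared. Rsph3a stood at 15.6 and 10.6 CPM in the 5xFAD libraries and 11.5, 12.8 and 12.5 CPM in the transgenic libraries, and Rsph3b at 9.01 and 7 CPM in the 5xFAD libraries and 6.43, 7.31 and 7.72 CPM in the transgenic libraries. Both were highest in 5xFAD replicate 1, and the transgenic libraries lay between the 5xFAD pair except for replicate 1 of Rsph3b, which lay below it. Per kb, Rsph3a was the most abundant spoke gene, at 4.17, close to Rsph1 at 4.04. Rsph6a, known from sperm, had 0 counts in every library, which allows up to the 3-count limit given above.

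All 3 genes of the nexin-dynein regulatory complex were over 2-fold in 5xFAD replicate 3, with a median log2 ratio of 1.87. Drc1, which anchors the complex to the doublet, stood at 1.05 and 8.16 CPM in the 5xFAD libraries and 1.88, 1.76 and 1.54 CPM in the transgenic libraries. Drc3 stood at 1.73 and 12.4 CPM in the 5xFAD libraries and 2.36, 3.64 and 1.79 CPM in the transgenic libraries. Drc7 stood at 4.44 and 27.9 CPM in the 5xFAD libraries and 5.08, 7.56 and 3.27 CPM in the transgenic libraries. In all 3 the highest library was the same, while the order of the remaining 4 differed. Drc7 was the most abundant per kb, at 3.23 CPM per kb against 1.07 for Drc1 and 0.968 for Drc3.

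Among Cfap genes of the central apparatus, 7 of 8 were over 2-fold in 5xFAD replicate 3, with a median log2 ratio of 2.14. Cfap65 (ENSMUSG00000047021, chromosome 1, 74941230 to 74974758, minus strand) stood at 11.1 and 79.7 CPM in the 5xFAD libraries and 14.4, 15.1 and 9.68 CPM in the transgenic libraries. Cfap69 stood at 3.69 and 26.2 CPM in the 5xFAD libraries and 3.1, 4.27 and 4.54 CPM in the transgenic libraries, and Cfap46 at 2.75 and 24 CPM in the 5xFAD libraries and 4.65, 3.58 and 3.84 CPM in the transgenic libraries. In these 3 genes 5xFAD replicate 3 was 5.27, 5.78 and 5.16 times the next library, and they are among the 6 members with the highest log2 ratios. Cfap74 differed from them, with 73.2 and 96.8 CPM in the 5xFAD libraries and 86.4, 67.3 and 83.5 CPM in the transgenic libraries. It was the most abundant member per kb, at 8.18 CPM per kb, with its highest library 1.12 times the next. It overlaps a tested non-coding gene on the opposite strand, 5830444B04Rik.

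The genes at the base of the radial spokes were all 3 over 2-fold, with a median log2 ratio of 1.89. Cfap61 and Cfap91 belong to a calmodulin- and spoke-associated complex. Cfap206 stood at 1.08 and 8.89 CPM in the 5xFAD libraries and 2.33, 1.85 and 1.27 CPM in the transgenic libraries. Cfap91 stood at 1.02 and 9.79 CPM in the 5xFAD libraries and 2.17, 1.6 and 1.45 CPM in the transgenic libraries, and Cfap61 at 1.25 and 6.6 CPM in the 5xFAD libraries and 1.26, 1.98 and 1.12 CPM in the transgenic libraries. Cfap206 and Cfap91 had Cd5l-transgenic replicate 1 as the next library, while Cfap61 had replicate 2.

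The linkers of the inner arms were all 5 over 2-fold, with a median log2 ratio of 1.99. Cfap44 (ENSMUSG00000071550, chromosome 16, 44215159 to 44302791, plus strand) and Cfap43 form a tether of the double-headed inner arm. Cfap44, the member with the highest log2 ratio, stood at 4.57 and 38.8 CPM in the 5xFAD libraries and 6.63, 4.86 and 4.6 CPM in the transgenic libraries. Cfap43 stood at 3.76 and 23.8 CPM in the 5xFAD libraries and 5.95, 4.36 and 3.78 CPM in the transgenic libraries, and it overlaps 3 other tested genes. Cfap73 and Cfap100 form a modifier complex at the inner arms. Cfap73 stood at 0.271 and 3.47 CPM in the 5xFAD libraries and 0.646, 0.721 and 0.363 CPM in the transgenic libraries, and Cfap100 at 1.49 and 12.3 CPM in the 5xFAD libraries and 3.43, 2.92 and 1.69 CPM in the transgenic libraries. The tether genes had transgenic libraries close to 5xFAD replicate 1, while for the modifier genes Cd5l-transgenic replicates 1 and 2 were more than 2-fold above 5xFAD replicate 1 except in the case of Cfap100, where replicate 2 was just below that.

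Microtubule inner proteins line the inside of the doublets. Of 7 tested, 6 were over 2-fold in 5xFAD replicate 3, with a lower median log2 ratio of 1.26. Cfap52 stood at 1.32 and 9.51 CPM in the 5xFAD libraries and 1.81, 2.38 and 1.45 CPM in the transgenic libraries. Cfap126 stood at 3.32 and 9.9 CPM in the 5xFAD libraries and 4.07, 3.89 and 3 CPM in the transgenic libraries. Cfap161 (ENSMUSG00000011154, chromosome 7, 83423309 to 83444088, minus strand) stood at 4.07 and 8.58 CPM in the 5xFAD libraries and 2.17, 2.38 and 1.73 CPM in the transgenic libraries, so both 5xFAD libraries lay above all 3 transgenic ones. Cfap20, an inner junction protein that is also known outside motile cilia, stood at 27.1 and 28.3 CPM in the 5xFAD libraries and 23.8, 23.2 and 25 CPM in the transgenic libraries. Both 5xFAD libraries lay above the transgenic ones by a small margin, and the gene was the most abundant of the class per kb, at 5.73 CPM per kb.

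The Cfap symbol also covers genes without a settled place in the axoneme. Of 10 such genes tested, 5 were over 2-fold in 5xFAD replicate 3, and the median log2 ratio was 0.84. The abundant ones were not among the 5. Cfap97 stood at 26.9 and 33.2 CPM in the 5xFAD libraries and 28.6, 26.7 and 30.6 CPM in the transgenic libraries. Cfap36 stood at 13.7 and 17.6 CPM in the 5xFAD libraries and 13.9, 17.1 and 13.3 CPM in the transgenic libraries. Cfap418, known from photoreceptors, stood at 12.6 and 16.6 CPM in the 5xFAD libraries and 12.4, 11.3 and 11 CPM in the transgenic libraries. Each of these was highest in 5xFAD replicate 3, by less than 1.5-fold. Cfap298, a factor of dynein arm assembly, stood at 6.71 and 11.3 CPM in the 5xFAD libraries and 7.6, 8.37 and 5.81 CPM in the transgenic libraries. Cfap410, a protein of the ciliary base, stood at 20 and 20 CPM in the 5xFAD libraries and 18.2, 16 and 17.9 CPM in the transgenic libraries, with the 5xFAD pair almost equal. Cfap300, also known in dynein arm assembly, stood at 1.08 and 4.06 CPM in the 5xFAD libraries and 0.679, 1.04 and 0.635 CPM in the transgenic libraries, and was over 2-fold. The untested Cfap58 stood at 0.169 and 1.27 CPM in the 5xFAD libraries and 0.194, 0.314 and 0.212 CPM in the transgenic libraries, and Cfap20dc at 0.169 and 0.423 CPM in the 5xFAD libraries and 0, 0.22 and 0.0303 CPM in the transgenic libraries. Cfap97d1 had reads in Cd5l-transgenic replicate 2 alone, at 0.0627 CPM and so under the 3-count limit.

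Ak7 and Armc2 did not behave alike. Ak7 (ENSMUSG00000041323, chromosome 12, 105672235 to 105748706, plus strand), an adenylate kinase of the central apparatus, stood at 3.05 and 27.9 CPM in the 5xFAD libraries and 5.92, 4.92 and 4.6 CPM in the transgenic libraries. It followed the library pattern of the heavy chains, 4.71-fold above the next library. Armc2 (ENSMUSG00000071324, chromosome 10, 41790986 to 41894438, minus strand), known for carrying radial spokes into the growing axoneme, stood at 11.7 and 13.9 CPM in the 5xFAD libraries and 7.01, 7.84 and 6.2 CPM in the transgenic libraries. Its 5xFAD libraries were close to each other and both lay above all 3 transgenic libraries.

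**Figure D2:**
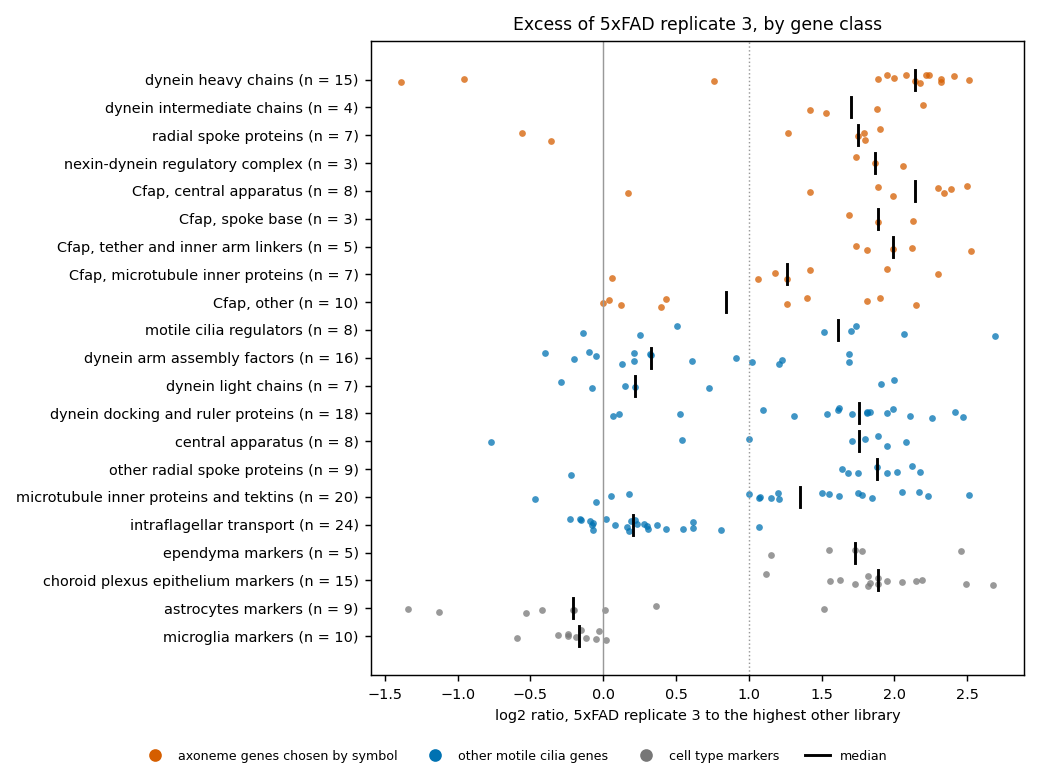
Log2 ratio of 5xFAD replicate 3 to the highest other library (CPM + 0.1), with 1 point per tested gene, a bar at each class median, a solid line at equality and a dotted line at 2-fold. Most axoneme classes have medians above the dotted line, while intraflagellar transport, assembly factors, light chains and microglial markers lie near equality.

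The 13 tested members that were not over 2-fold in 5xFAD replicate 3 were thus Dnah8, Dnah14, Dnah17, Rsph3a, Rsph3b, Cfap20, Cfap36, Cfap74, Cfap97, Cfap298, Cfap410, Cfap418 and Armc2. Their summed level was 218.1 and 257.2 CPM in the 5xFAD libraries and 217.5, 199.9 and 215 CPM in the transgenic libraries. In 5xFAD replicate 1 and in each transgenic library the 13 genes had a larger summed CPM than the other 51. Overlap with another tested gene was found for 8 of the 13 and for 17 of the 51. Whether counting used the strand is not stated, and reads of overlapping genes may have been mixed.

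The genotypes were then contrasted, with differences coded as Cd5l-transgenic minus 5xFAD. The edgeR quasi-likelihood test with Benjamini-Hochberg adjustment called 0 of the 64 members higher and 0 lower, and 0% of all tested genes in either direction, Cd5l included. At an unadjusted p under 0.05, 5 members were lower (1.5% of all tested genes were) and 0 were higher (1.14%). DESeq2 called 1 member lower (0.0169% of all tested genes) and 0 higher (0.0677%). The log2 fold change was below 0 in 63 of the 64 members, Dnah8 being the exception, and in 57.3% of all tested genes. The median was -1.49 over the members and -0.03 over all tested genes. Since the contrast includes the library for which the genes were chosen, nothing is read from these counts.

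For Armc2 the edgeR fold change on the log2 scale was -0.87 (SE 0.16), with an edgeR adjusted p of 0.9954. DESeq2 called this member, with a log2 fold change of -0.84 (SE 0.21) and an adjusted p of 0.0494. Armc2 was among the genes chosen on these libraries, so nothing is read from this call or from the library orders that follow. Every transgenic library lay below both 5xFAD libraries in 7 members (10.9%, against 8.69% of all tested genes) and above both in 0 (7.2%). The 7 were Armc2, Cfap20, Cfap161, Cfap300, Cfap410, Cfap418 and Cfap299, the last named after its values were seen. The log2 fold change was -1.62 (SE 0.38) for Cfap161, -1.76 (SE 0.64) for Cfap300 and -0.21 (SE 0.08) for Cfap20. It was -0.34 (SE 0.16) for Cfap418, -0.20 (SE 0.10) for Cfap410 and -1.87 (SE 0.60) for Cfap299. The 51 members over 2-fold in 5xFAD replicate 3 had fold changes from -2.22 to -0.88 on the log2 scale, with standard errors of 0.38 to 1.05.

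Without 5xFAD replicate 3 the direction of most members turned. The median log2 fold change was then 0.33 over the 64 members tested, 53 of which were above 0, and -0.01 over all 18528 genes tested. Of the 51 members over 2-fold in that library, 47 were above 0, with a median of 0.44 and a range from -0.96 to 1.81. In this fit edgeR called 0 members in either direction, as it did over all genes (0%). Only 1 5xFAD mouse remained, and it was taken to vary as the transgenic mice do. Dnah6 had a log2 fold change of 0.71 (SE 0.29) there, in place of -1.59 (SE 0.82), and Ak7 0.75 (SE 0.30), in place of -1.61 (SE 0.83). Below 0 there remained 11 members, among them Armc2 at -0.74, Cfap161 at -0.96, Cfap300 at -0.47, Cfap299 at -0.86 and Dnah17 at -0.89.

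Without 5xFAD replicate 1, all 51 were below 0, with a median of -2.36 and a range from -3.01 to -1.44. Over all 66 members tested in that fit the median was -2.29. The edgeR test then called 8 members lower, at an adjusted p of 0.047 each, and 0 higher (0.0528% and 0% of all tested genes). They were Cfap44, Dnah10, Ak7, Cfap69, Cfap46, Dnah12, Dnah11 and Dnah5, the last an outer arm heavy chain outside the rule for named genes. Their log2 fold changes ran from -2.85 for Cfap44 to -2.38 for Dnah5. These calls set the single library 5xFAD replicate 3 against the transgenic libraries. The genes were chosen for following that library, so nothing is read from the calls.

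**Figure D3:**
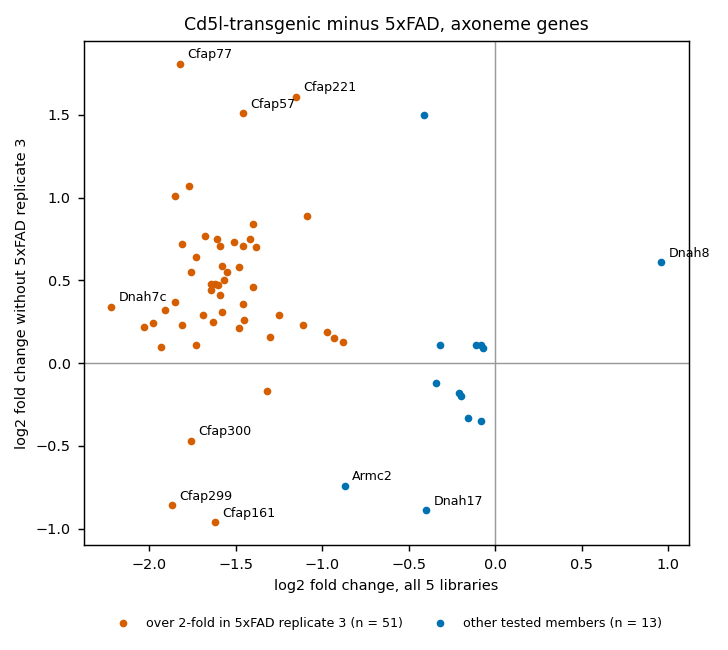
Log2 fold change (Cd5l-transgenic minus 5xFAD) of each tested member, with all 5 libraries on the horizontal axis and without 5xFAD replicate 3 on the vertical axis, with 1 point per gene. Most of the 51 members over 2-fold in that library lie left of 0 and above 0. Below 0 on both axes lie 11 members, among them Armc2, Cfap161, Cfap299, Cfap300 and Dnah17.

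Other genes of motile cilia, listed by role and outside the symbol rule, were read the same way. Of 147 listed symbols 122 were in the table and 110 were tested. Of these, 92 were highest in 5xFAD replicate 3 (21.3% of all tested genes were) and 58 were over 2-fold there (3.85%). The median log2 ratio was 1.04, against -0.16 over all tested genes. The edgeR test called 0 of the 110 in either direction (0% of all tested genes), and at an unadjusted p under 0.05, 6 were lower (1.5%) and 0 higher (1.14%). The median log2 fold change was -0.83, against -0.03 over all tested genes, and it was 0.19 without 5xFAD replicate 3.

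The lists were not alike. Over 2-fold were 15 of 18 docking and ruler proteins, which fix the arms to the doublets at set distances (median log2 ratio 1.76), and 8 of 9 further spoke proteins (1.88). So were 6 of 8 further central apparatus genes (1.75) and 16 of 20 further inner proteins and tektins (1.36). By contrast, 1 of 24 genes of intraflagellar transport, the carriage of parts along all cilia, was over 2-fold (0.21). It was 5 of 16 for dynein arm assembly factors (0.32) and 2 of 7 for dynein light chains (0.22). Genes within these lists differed. The light chains over 2-fold were Dnali1 (3.83-fold) and Dynlrb2 (4.21-fold), and the assembly factors were Zmynd10, Pih1d2, Lrrc6, Dnaaf1 and Dnaaf4. These were named after their values were seen. The most abundant of each list per kb, Dynlrb1 and Pih1d1, stood at 0.819 and 0.87 times the highest other library. Ift172, with Ift52 the most abundant transport gene per kb, stood at 96.2 and 94 CPM in the 5xFAD libraries and 98.6, 94.9 and 79.3 CPM in the transgenic libraries. Intraflagellar transport genes summed to 410.6 and 487.3 CPM in the 5xFAD libraries and 421.6, 420.8 and 372.5 CPM in the transgenic libraries.

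Among regulators of the motile cilia programme, 5 of 8 tested were over 2-fold in 5xFAD replicate 3: Foxj1, Gmnc, Trp73, Rfx2 and Myb, named after their values were seen apart from Foxj1. Foxj1, the forkhead factor that drives axoneme genes, stood at 4.57 and 39.1 CPM in the 5xFAD libraries and 9.44, 11.9 and 6.54 CPM in the transgenic libraries. Gmnc, which starts the multiciliated cell programme, stood at 0.474 and 6.43 CPM in the 5xFAD libraries and 0.614, 0.91 and 0.605 CPM in the transgenic libraries. E2f4, which many cell types express, stood at 46 and 41.8 CPM in the 5xFAD libraries and 45, 39 and 45.7 CPM in the transgenic libraries. Mcidas, a cofactor of the same programme, had 0 counts in every library. So Foxj1 was highest in 5xFAD replicate 3 and lowest in 5xFAD replicate 1, as many axoneme genes were, and E2f4 was not.

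Markers of other cells moved with the same library. Ependymal markers other than axoneme genes summed to 15.01 and 96.1 CPM in the 5xFAD libraries and 27.1, 28.2 and 17.3 CPM in the transgenic libraries. All 5 tested were over 2-fold in 5xFAD replicate 3, while the sixth, Mia, was at or near 0 throughout. Choroid plexus markers summed to 730.4 and 4429 CPM in the 5xFAD libraries and 447.5, 1052 and 562.6 CPM in the transgenic libraries. All 15 of 15 were over 2-fold in 5xFAD replicate 3, among them Ttr, the transthyretin of choroid plexus, at 391 and 2478 CPM in the 5xFAD libraries and 204, 442 and 288 CPM in the transgenic libraries. Of the 5 libraries, Cd5l-transgenic replicate 1 was lowest for the choroid plexus sum and second highest for the sum of the 51 axoneme genes. Most of that choroid plexus sum came from Ttr (204 CPM) and Enpp2 (167 CPM). Single choroid plexus markers differed in order. Ttr was lowest in Cd5l-transgenic replicate 1, Clic6 in Cd5l-transgenic replicate 3 and Otx2 in 5xFAD replicate 1. The ependymal sum, as the axoneme sum, was lowest in 5xFAD replicate 1.

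Astrocyte markers summed to 297.8 to 426.4 CPM with 1 of 9 over 2-fold in 5xFAD replicate 3, and neuronal markers to 5.32 to 15.2 CPM with 0 of 8. The astrocyte gene was Aqp4, a water channel, at 4.81 and 21.9 CPM in the 5xFAD libraries and 6.34, 7.59 and 5.54 CPM in the transgenic libraries. Oligodendrocyte markers summed to 365.3 and 336.1 CPM in the 5xFAD libraries and 1067, 4204 and 363 CPM in the transgenic libraries, so a different library stood out there. The part of ependymal or choroid plexus RNA in the axoneme values was not tested.

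**Figure D4:**
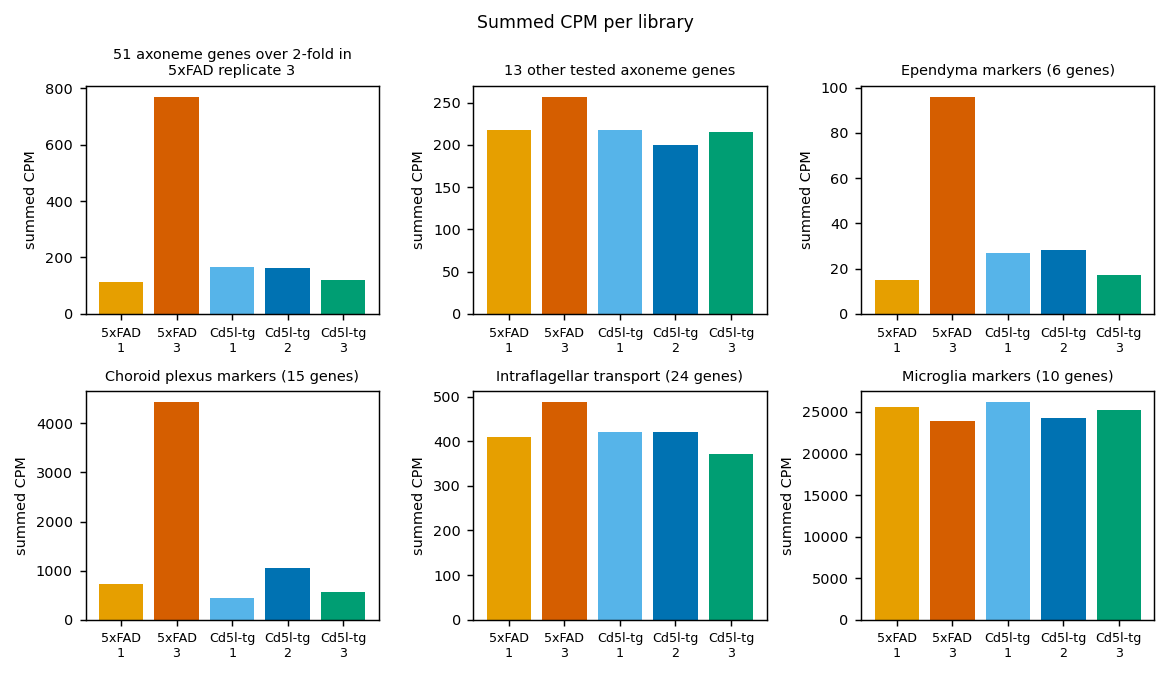
Summed CPM per library for the 51 axoneme genes over 2-fold in 5xFAD replicate 3, the 13 other tested members and 4 gene lists, with 1 bar per library and each axis starting at 0. The 51 genes, ependymal markers and choroid plexus markers are highest in 5xFAD replicate 3, whereas microglial markers are at a like level in all 5 libraries.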

How the data were processed

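RNA was sequenced from 5 mice, 1 library each. The authors deposited whole-number counts per Ensembl gene in 1 table with no normalisation. Per the submitters' processing notes the build was GRCm39, while for aligner, counting tool and strand no source used here gives an entry. The column of Cd5l-transgenic replicate 3 spells its library's letters in swapped order. Low genes were removed by filterByExpr (edgeR 4.0.16, R 4.3.3). Counts were scaled by TMM factors of 0.952 to 1.02 and fitted with the robust quasi-likelihood test on all 17724 genes passing, with genotype alone in the design and a threshold of 0.05 on the Benjamini-Hochberg adjusted p. The biological coefficient of variation was 0.26. Standard errors given for edgeR are the absolute log2 fold change divided by the square root of the F statistic of its test. Those given for DESeq2 are its own estimates. Whether the mice were littermates is not stated, so p-values measure the spread between these 5 libraries. Ratios of 5xFAD replicate 3 to the highest other library were computed from CPM for folds and from log2(CPM + 0.1) for log2 values, which understates the ratio of low genes. Alternatives were other scalings, no filter, DESeq2 1.42.0, a block for the replicate number, and fits that leave out 1 library. The main edgeR fit alone was tried on simulated counts, in which no library was made to stand apart as 5xFAD replicate 3 does.

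The members, the lists and the rules were chosen with earlier results of these data known. Named with values were the 4 most abundant members of each class per kb (6 for heavy chains), the 6 members with the highest and the 6 with the lowest log2 ratio, those at a mean of 1 CPM or more whose transgenic libraries all lay on 1 side of both 5xFAD libraries, Ak7 and Armc2, and the 2 most abundant genes per kb of each other list. Of the genes under this rule, 1 is not reported here. Lists were 8 of motile cilia genes and 9 of cell type markers. Endothelial markers summed to 570.2 to 1198 CPM, mural markers to 179.3 to 446.3 CPM and erythroid markers to 1.47 to 20.8 CPM, and each sum was highest in Cd5l-transgenic replicate 2. Sequences are RefSeq promoters of GRCm38.p6, whose coordinates are not those of the count table.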

Additional observations from a re-analysis of the deposited data

How the results depend on the processing

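Under each other scaling of the edgeR fit, without the low-count filter and with the older quasi-likelihood method (chosen after seeing the data), edgeR called 0 members in either direction, and under the scalings and without the filter the median log2 fold change of members was -1.51 to -1.47. DESeq2 called 1 member lower, Armc2, and gave a median of -1.43. When each library was left out in turn, the count of members called lower ran from 0 to 8, the median log2 fold change of members from -2.29 to 0.33 and that of the wider cilia genes from -1.50 to 0.19. The ends of each range came from leaving out 5xFAD replicate 1 (-2.29, -1.50 and 8 calls) and 5xFAD replicate 3 (0.33 and 0.19). The number of members highest in 5xFAD replicate 3 was 59 to 62 over the alternatives that keep it. Leaving that library out gives no ratio to it, and DESeq2 and the block bear on no such ratio.

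Replicate numbers 1 and 3 are shared by both genotypes, but the labels do not say that a number marks a litter or day. Deviations from the group means correlated at 0.129 for number 1 and -0.239 for number 3. The deviations of the 5xFAD pair from their mean are mirror images, so these values are not separate checks. Against Cd5l-transgenic replicate 1, the correlation was 0.129 for 5xFAD replicate 1 and -0.129 for 5xFAD replicate 3. Whether the numbers pair the mice cannot be decided from these correlations. With the replicate number as a block, the median log2 fold change of members was -1.21, the median log2 fold change of wider cilia genes was -0.82, and edgeR called 0 members higher and 0 lower. Under the block the sign changed for Cfap74 (0.01), Rgs5 (-0.01) and E2f4 (0.05).

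Of 76 named genes, 51 had a log2 fold change of the other sign under some alternative. The cause was not tested. When each library was left out in turn, the lowest value came without 5xFAD replicate 1 and the highest without 5xFAD replicate 3 for most of them. The ranges were Ak7 -2.44 to 0.75, Cfap74 -0.29 to 0.11, Cfap65 -2.61 to 0.23, Cfap69 -2.72 to 0.10, Cfap46 -2.58 to 0.55, Cfap126 -1.44 to 0.13, Cfap52 -2.34 to 0.50, Cfap97 -0.21 to 0.09, Cfap36 -0.25 to 0.11, Cfap298 -0.64 to 0.11, Cfap206 -2.29 to 0.73, Cfap91 -2.49 to 0.77, Cfap61 -2.18 to 0.21, Cfap44 -2.85 to 0.22, Cfap73 -2.59 to 1.07, Cfap43 -2.34 to 0.31 and Cfap100 -2.20 to 0.84. For dynein, regulatory complex and spoke genes they were Dnah6 -2.42 to 0.71, Dnah10 -2.65 to 0.72, Dnah12 -2.42 to 0.48, Dnah9 -2.43 to 0.48, Dnah2 -2.19 to 0.26, Dnah11 -2.55 to 0.64, Dnai4 -1.77 to 0.23, Dnai3 -2.45 to 0.29, Dnai1 -2.36 to 0.59, Dnai2 -1.84 to 0.89, Drc7 -2.40 to 0.25, Drc1 -2.24 to 0.71, Drc3 -2.25 to 0.58, Rsph1 -2.16 to 0.70, Rsph9 -1.57 to 0.19 and Dnah7c -3.01 to 0.34. For genes outside the symbol rule they were Enpp2 -2.41 to 0.14, Tmem212 -2.25 to 0.90, Rgs5 -0.11 to 0.64, Stk36 -1.22 to 0.19, Ccdc153 -2.32 to 0.58, Gas8 -0.15 to 0.09, Dynll1 -0.24 to 0.36, Tppp3 -0.93 to 1.31, Lrrc51 -1.44 to 0.44, Foxj1 -2.07 to 1.02 and Lrrc23 -2.43 to 0.60. The ends came from the same 5xFAD libraries in the opposite order, or at least in part from transgenic libraries (Ift172, E2f4), for Rsph3a -0.35 to 0.22, Rsph3b -0.33 to 0.03, Dnah17 -0.89 to 0.20, Gfap -0.05 to 0.37, Pih1d1 -0.11 to 0.09, Ift172 -0.13 to 0.04 and E2f4 -0.09 to 0.06. Pih1d1 was at 0.01 with the DESeq2 size factors, the upper-quartile factors and the DESeq2 test, and at 0.03 with library totals only, where E2f4 was at 0.02. Members under 1 CPM in most libraries, such as Dnah8 and Dnah7c, rest on few reads, and a pair of 5xFAD libraries limits every contrast of genotypes.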
